A study of Homo sapiens with 3 samples.

Results

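The 76 genes described here encode proteins of the mitochondrial ribosome and were read in 3 single-cell RNA libraries of BxPC-3, a human cell line derived from a pancreatic ductal adenocarcinoma. They were chosen by name: a symbol made of MRPL or MRPS, a number and an optional A, B or C, with a mean of at least 5 counts per 1000000 UMIs (CPM) over the 3 libraries. Of 33694 listed features, 77 carried such a symbol and 76 passed the floor, which 9501 features passed in all. Throughout, 3 values given in a row belong to parental, single-positive and double-positive cells in that order. MRPL53 fell just outside it, with 3.86, 4.74 and 3.58 CPM, and MRPL23, at a mean of 8.19 CPM, was the lowest gene inside it.

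The study asked what happens to carcinoma cells that enter one another, a process called cell-in-cell formation or entosis. BxPC-3 cells that stably express EGFP were mixed with BxPC-3 cells that stably express mCherry, held in suspension so that some would engulf others, and sorted. Double-positive cells carried both colours and single-positive cells carried 1 of them, while the parental cells are BxPC-3 with no sorting signal named. Each group was 1 library made with a droplet kit that reads the 5′ end of transcripts. The labels call the cells expanded without saying at which step, and they do not say whether both colours entered the single-positive library. No feature for EGFP or mCherry was used here, so the sort was not checked in the RNA.

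Each group being 1 library, no difference could be set against a spread between replicates, and none was tested. Intervals are at 95% and cover counting error only. Barcodes with at least 6500 unique molecular identifiers (UMIs, each standing for 1 captured transcript) were taken as cells, which gave 2409, 1291 and 1940 cells whose median depths were 23290, 38137 and 29963.5 UMIs. Pairs of libraries shared between 1 and 6 cell barcodes. All 6 epithelial markers were found, summing to between 7415 and 8247 CPM, whereas markers of fibroblasts (5 genes, 1 or 2 at 0), immune cells (5 genes, 1 at 0) and endothelium (4 genes, at most 1 at 0) summed to at most 2.30, 5.72 and 0.470 CPM.

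The mitochondrial ribosome translates the few mRNAs that the mitochondrial genome encodes, all of them for the complexes of oxidative phosphorylation. Its RNA comes from mitochondrial DNA, but all of its proteins are encoded in the nucleus, made in the cytosol and imported. Compared with a bacterial ribosome it has less RNA and more protein, so that its small subunit, which reads the mRNA, and its large subunit, which joins amino acids, hold both descendants of bacterial proteins and proteins added in mitochondria. In this set 49 genes encode large subunit proteins, 30 with a bacterial counterpart and 19 without. A further 26 encode small subunit proteins, 16 with a counterpart and 10 without. MRPS36 keeps its historical name, although its protein has been reassigned to the oxoglutarate dehydrogenase complex. MRPS30 and MRPS18A, in spite of the S, are counted with the large subunit, where their proteins sit.

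The 76 genes, all protein-coding, lie on 21 chromosomes of GRCh38, with at most 8 on one of them, so no cluster holds the family. What many of them share is short runs of letters around the gene start. RefSeq promoters (GRCh38.p14, 250 bases before to 50 after the gene start) were matched for 67 of the 76. Short runs of letters linked to nuclear genes for mitochondria were searched on both strands: CCGGAAG for ETS factors such as GABPA, AAGATG directly followed by GCGG for YY1, and GCGCA and GCGC with any base between them for NRF1. The ETS letters were in 27 members (40.3%), against 22.02% of 7371 promoters of features above the floor and 10.3% of all 35116 promoters. The YY1 letters were in 13 members (19.4%), against 3.49% and 1.20%. The NRF1 letters were in 8 members (11.9%), close to the 13.02% of features above the floor and above the 5.78% of all promoters. At least 1 of the 3 was in 41 members, 61.2% against 34.1% and 15.7%. The TATAAA letters were in 2 members (2.99%), against 5.36% and 11.5%. A match is a run of letters and not a bound site, and no binding was measured.

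The YY1 letters sat at the front of the gene rather than upstream of it: 10 of the 13 matches began after the gene start and 11 ran in the direction of the gene. In 9 of those 11 the ATG inside the letters is the annotated start codon, so the same bases begin the protein, and in other features above the floor this held for 127 of 201 such matches (63.2%). The stretches below are 30 bases each, shown for MRPS10, MRPL50 and MRPL42, the 3 members highest in double-positive against single-positive cells, for MRPS24, the most abundant member with the letters, and for the paralogs MRPS18A and MRPS18B. The YY1 letters are in capitals. Their presence in MRPS10, MRPL50 and MRPL42 was noticed after the ratios had been seen. MRPL52, among the lowest members in that comparison (log2 ratio −0.15), carries the letters too. The median log2 ratio of double-positive over single-positive cells was 0.04 in the 13 members with them and −0.0012 in the 54 without.
MRPS10 (chr6:42217833-42217862, minus strand): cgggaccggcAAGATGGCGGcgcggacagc
MRPL50 (chr9:101398576-101398605, minus strand): gatctcatcgAAGATGGCGGcgcgatctgt
MRPL42 (chr12:93467512-93467541, plus strand): ggattgaaacAAGATGGCGGgttcgtggtg
MRPS24 (chr7:43869479-43869508, minus strand): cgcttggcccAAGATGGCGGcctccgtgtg
MRPS18A (chr6:43687763-43687792, minus strand): taggtttttgAAGATGGCGGccctcaaggc
MRPS18B (chr6:30617853-30617882, plus strand): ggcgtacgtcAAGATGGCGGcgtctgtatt

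The ETS letters lay just upstream in 3 members that recur below. They are in capitals, on either strand, in the stretch upstream of MRPS10, whose level differed most between libraries, and of MRPS34 and MRPL20, among the most abundant members. The MRPS34 stretch lies between MRPS34 and EME2, which starts 52 bases away on the other strand, so it is upstream of both.
MRPS10 (chr6:42217866-42217985, minus strand): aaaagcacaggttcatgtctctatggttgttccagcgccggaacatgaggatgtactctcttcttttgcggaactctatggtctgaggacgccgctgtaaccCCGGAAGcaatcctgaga
MRPS34 (chr16:1773156-1773206, minus strand): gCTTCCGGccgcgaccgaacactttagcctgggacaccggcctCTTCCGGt
MRPL20 (chr1:1407314-1407433, minus strand): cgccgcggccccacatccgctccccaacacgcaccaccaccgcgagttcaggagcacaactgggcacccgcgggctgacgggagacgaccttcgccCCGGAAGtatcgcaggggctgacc

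The letters did not sort the members by level. Members with the YY1 letters had a median of 79.9 CPM and those without 86.3. The medians were 85.4 and 83.6 CPM with and without the ETS letters, and 102 and 85.4 with and without the NRF1 letters. Some members also start close to a gene that runs the other way. Whether such pairs share a promoter was not tested. A protein-coding gene starts on the other strand at most 1000 bases upstream of the start of 17 members (22.4%), against 10.5% of 9286 protein-coding genes above the floor. Pairs of genes that overlap at their starts were not counted. MRPS11 and MRPL46 face each other at 34 bases, MRPL36 faces NDUFS6 at 34 bases and MRPL47 faces NDUFB5 at 36 bases; NDUFS6 and NDUFB5 encode subunits of respiratory complex I.

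Together the 76 genes made up just under 1% of the transcripts. Their summed level was 8534 CPM (8511 to 8557), 8258 CPM (8233 to 8283) and 8309 CPM (8286 to 8332), from 544321, 416675 and 508153 UMIs. The median cell gave 195, 308 and 244 of these UMIs. Levels are UMIs, which count a transcript once at its 5′ end, and were not divided by gene length.

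Members spanned a 46.8-fold range of mean level, with a median of 82.7 CPM, and 31 of them reached 100 CPM. The 12 most abundant held 39.9% of the family's transcripts. MRPS12, a conserved protein of the decoding centre, was the highest, at 397, 371 and 382 CPM. MRPS34, a mitochondria-specific protein of the small subunit, followed at 393, 362 and 377 CPM. MRPL41 (360, 328 and 320 CPM), MRPL51 (327, 319 and 324), MRPL20 (294, 281 and 305) and MRPS24 (302, 273 and 281) completed the first 6. The group holds 3 proteins of each subunit.

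At the low end were MRPL30 (22.8, 24.9 and 23.0 CPM), MRPS31 (19.8, 22.4 and 19.3), MRPS9 (18.6, 19.8 and 18.4) and MRPL1 (17.9, 18.01 and 18.3), whose protein forms part of a mobile stalk on the large subunit. MRPS27, a protein of the RNA-binding pentatricopeptide family, stood at 15.7, 18.1 and 16.4 CPM. MRPL23, which lines the exit of the peptide tunnel, was the lowest at 7.68, 9.12 and 7.78 CPM, from 490, 460 and 476 UMIs. The transcripts of proteins that are built into the same particle were thus far from equal in number, and the order hardly moved from library to library: across the 76 genes, which are not independent replicates, Spearman's rho of the levels was 0.996 for each pair of libraries.

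**Figure D1:**
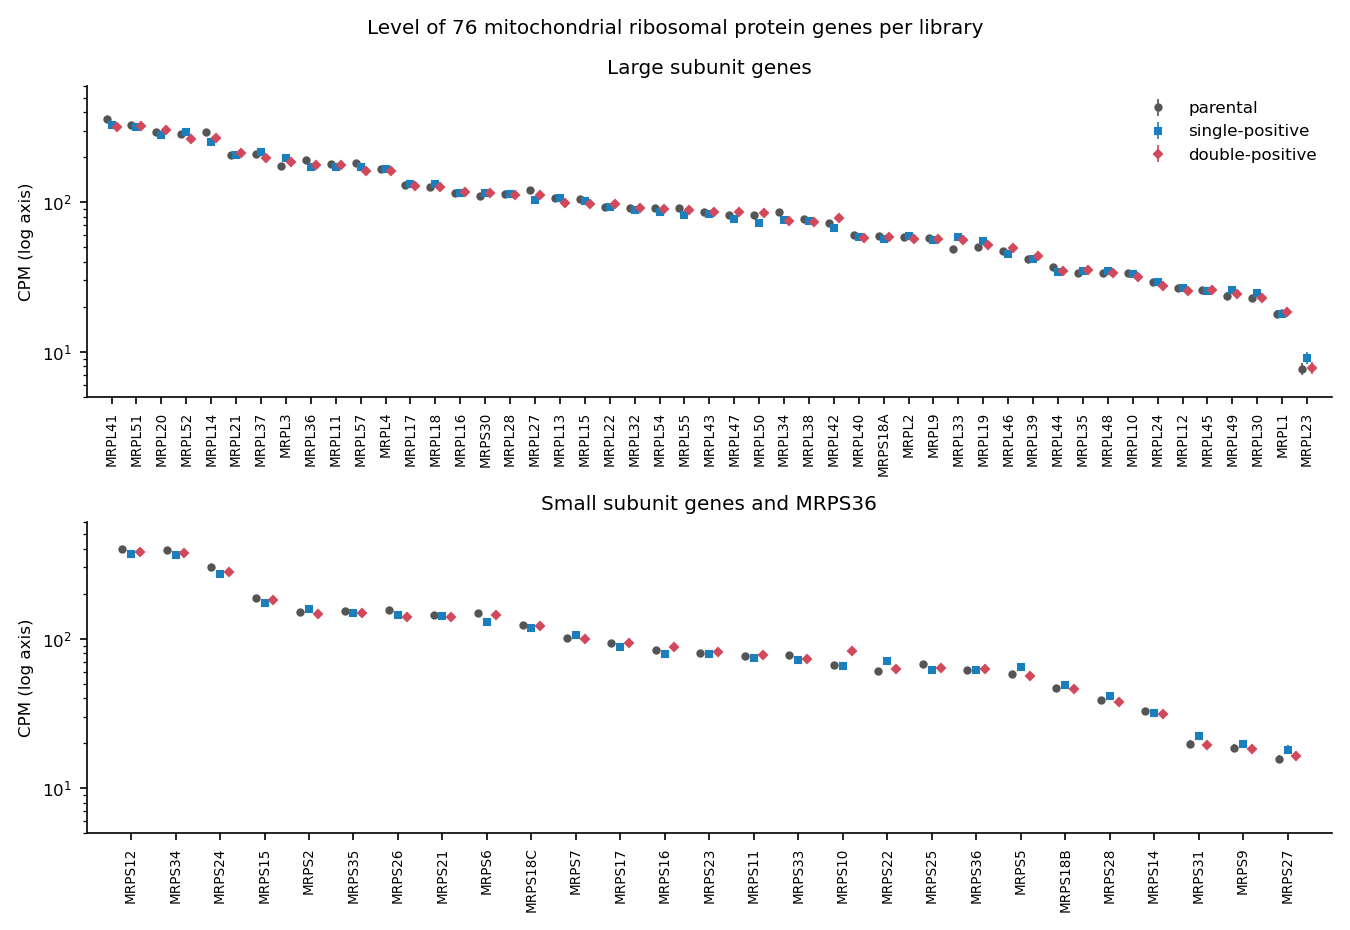
Level of each of the 76 genes in CPM on a log axis, large subunit genes above and small subunit genes with MRPS36 below, ordered by mean level. Points are parental (circles), single-positive (squares) and double-positive cells (diamonds), with counting intervals at 95% that are mostly smaller than the points; MRPS10 is the gene whose double-positive point stands apart, at 83.2 CPM against 66.7 and 65.6.

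For some members the reads may be hard to assign to 1 gene. Exons of 12 members share bases with another gene on the same strand, among them MRPS24 with the read-through gene URGCP-MRPS24 (606 bases), MRPL33 with BABAM2 (324 bases) and MRPS6 with SLC5A3 (273 bases), and 27 share exonic bases with a gene on the other strand. Pseudogenes named after 33 members, 74 in all, are annotated in the genome and none of them is among the listed features. Their part in the levels was not tested.

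The family's level was nearly the same in all 3 libraries. A difference of at least 25% between libraries (0.322 on the log2 scale) was used as a mark of size. In 75 of the 76 genes the highest library was less than that above the lowest, and in 52 it was less than 10% above. The median gene of the family had a ratio of 1.08 between its highest and lowest library, and the median over the 9501 features was 1.12. The counting interval of a single gene's log2 ratio reached a median of 0.06 to either side, less in abundant and more in rare members.

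The comparison of double-positive with single-positive cells asks what distinguishes cells with both colours from cells that went through the same suspension and sort. The summed family differed by 0.0089 on the log2 scale (0.0030 to 0.015). Of the 76 genes 40 were higher and 36 lower in double-positive cells, where 42.8% of all features were higher, and the median log2 ratio was 0.0090 against −0.03 over all features. Only MRPS10 passed the 25% mark, as 5.17% of all features did.

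MRPS10 (chr6:42206801-42217865, minus strand) encodes a conserved protein in the head of the small subunit. Its level was 66.7, 65.6 and 83.2 CPM. The double-positive library was the high one and the counting intervals of the other libraries overlapped. Its log2 ratio was 0.34 (0.28 to 0.41) against single-positive and 0.32 (0.26 to 0.38) against parental cells. When each library's cells were cut into 3 equal groups by UMIs, the level rose with depth in each library, from 58.7 to 64.3 and 70.8 CPM, from 61.7 to 63.4 and 68.0 CPM, and from 74.2 to 83.2 and 87.1 CPM. The double-positive value was the highest in each depth group, but the groups were not matched in depth between libraries. Median UMIs were 15146, 13207 and 19865 in the lowest group and 23290, 38176.5 and 29967 in the next. In the highest group they were 38820, 58805 and 43268.5. The lowest double-positive value, 74.2 CPM, lay above the 70.8 and 68.0 CPM of the deepest groups of the other libraries. The genome holds 2 pseudogenes named after MRPS10. Whether it passed the mark depended on the settings: its double-positive to single-positive log2 ratio ran from 0.28 to 0.37 over 8 alternatives and passed it in 6 of them.

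The next members lay inside the fold. MRPL50, a mitochondria-specific protein of the large subunit, had 82.5, 72.5 and 84.7 CPM, a double-positive to single-positive log2 ratio of 0.22 (0.16 to 0.29). MRPL42 had 73.1, 67.7 and 78.3 CPM (0.21, 0.15 to 0.27) and the conserved MRPS16 83.4, 78.6 and 88.6 CPM (0.17, 0.11 to 0.23). In these 3 genes the single-positive library was the lowest and the double-positive library the highest. In the other direction MRPS31 had a log2 ratio of −0.21 (−0.33 to −0.10), MRPS5, at 58.4, 65.1 and 56.7 CPM, −0.20 (−0.27 to −0.13), MRPS22, at 61.0, 71.0 and 62.9 CPM, −0.17 (−0.24 to −0.11), and MRPL52, at 287, 294 and 265 CPM, −0.15 (−0.18 to −0.12). MRPL23 had −0.23, with the widest interval (−0.42 to −0.04).

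**Figure D2:**
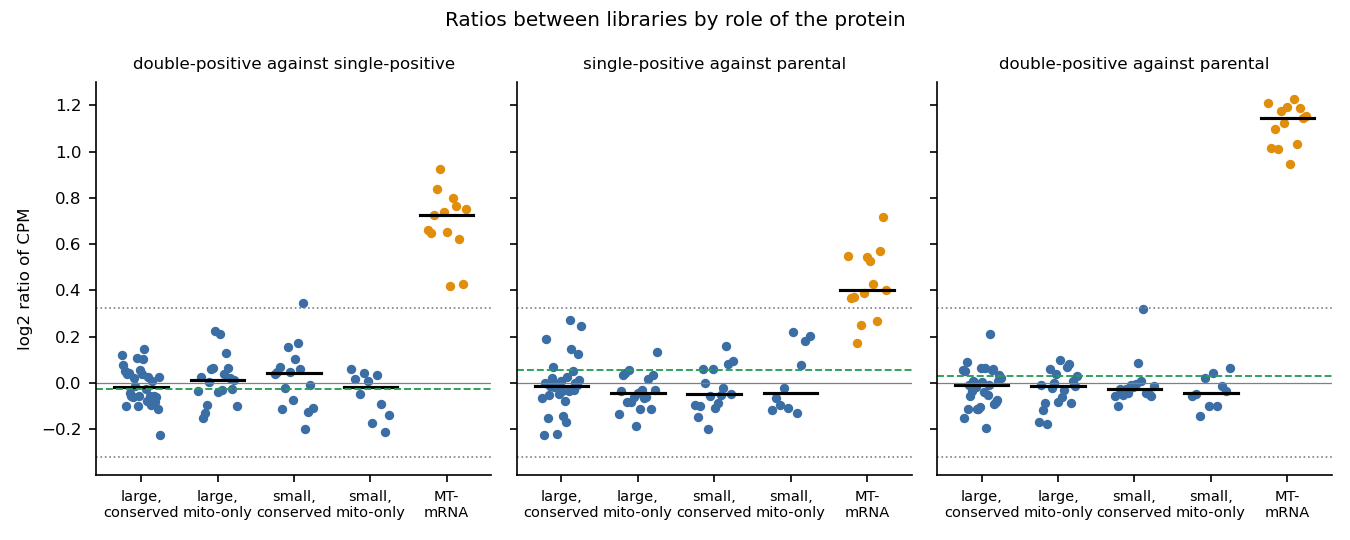
Log2 ratio of CPM in the 3 comparisons, by role of the protein, with the 13 mitochondrial mRNAs at the right of each panel; each point is a gene, black bars are medians, the dashed line is the median over all features, the dotted lines mark a 25% difference, and MRPS36 is not drawn. MRPS10, at 0.34 in double-positive against single-positive cells, is the one member past a dotted line, while the mitochondrial mRNAs have medians of 0.73, 0.40 and 1.15.

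The comparison of single-positive with parental cells sets sorted cells of 1 colour beside the line they came from. The summed family was lower by 0.047 on the log2 scale (−0.053 to −0.042), a decrease of a few percent. Of the 76 genes 28 were higher and 48 lower, while 64% of all features were higher, and the median log2 ratio was −0.03 against 0.06 over all features. Under median-of-ratios scaling, which puts the median over all features near 0, 16 were higher and 60 lower and the summed log2 ratio was −0.10. No member passed the 25% mark, as 6.28% of all features did. Among members of at least 20 CPM, MRPL33, a short conserved protein of the large subunit, was the highest, at 48.3, 58.3 and 56.0 CPM, a log2 ratio of 0.27 (0.20 to 0.34) in single-positive over parental cells. MRPS22 followed with 0.22 (0.15 to 0.28). MRPL3, a conserved protein that reaches towards the peptidyl transferase centre, had 174, 199 and 185 CPM (0.19, 0.15 to 0.23). The lowest were MRPL14, at 297, 254 and 267 CPM (−0.23, −0.26 to −0.19), MRPL27, at 121, 103 and 111 CPM (−0.22, −0.27 to −0.17), and MRPS6, at 149, 129 and 144 CPM (−0.20, −0.25 to −0.16). In each of these 3 the parental library was the high one and the single-positive library the low one.

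Double-positive cells were lower than parental cells in the summed family by 0.039 on the log2 scale (−0.044 to −0.033). Of the 76 genes 29 were higher and 47 lower, where 58.8% of all features were higher, and the medians were −0.02 in the family and 0.03 over all features. The split was 19 and 57 under median-of-ratios scaling and 36 and 40 with nuclear UMIs as total, and 37 and 39 without cells under 0.5% mitochondrial UMIs, where the summed log2 ratio was −0.0047. None passed the 25% mark, as 4.19% of all features did. MRPS10, at 0.320, came just under the 0.322 of the mark. MRPL33 was again high (0.21, 0.14 to 0.28). MRPL34, at 85.9, 76.5 and 75.1 CPM, was the lowest (−0.19, −0.25 to −0.14), then MRPL57, at 183, 173 and 162 CPM (−0.18, −0.22 to −0.14), and MRPL41 (−0.17, −0.20 to −0.14). The 3 comparisons share libraries, so they are not independent of one another.

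No role within the ribosome differed between libraries by more than a few percent. Large subunit genes summed to 5378, 5233 and 5232 CPM. Small subunit genes summed to 3095, 2963 and 3015 CPM. Conserved and mitochondria-specific proteins were also summed apart: within the large subunit they came to 3160, 3080 and 3107 CPM and to 2218, 2153 and 2125 CPM, and within the small subunit to 2024, 1936 and 1986 CPM and to 1071, 1028 and 1029 CPM. MRPS36, counted with neither subunit, had 61.5, 61.8 and 62.4 CPM. In every one of the subunit sets parental cells held the highest sum. The MRPS18 paralogs, which descend from 1 bacterial protein, kept to their own levels: MRPS18C at 123, 119 and 122 CPM, MRPS18A at 59.7, 56.998 and 58.5 CPM and MRPS18B at 46.8, 49.3 and 46.3 CPM. In spite of this descent, only MRPS18C is counted here with the conserved proteins, and MRPS18A and MRPS18B with the mitochondria-specific ones.

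The mRNAs that this ribosome reads did differ between the libraries. The 13 mRNAs of the mitochondrial genome summed to 9737, 12214 and 20642 CPM. There were therefore 1.14, 1.48 and 2.48 UMIs of mitochondrial mRNA for each UMI of the family. All 13 were at least 25% higher in double-positive than in single-positive and in parental cells, with median log2 ratios of 0.73 and 1.15. Of the 9501 features, 147 and 191 were that much higher in these comparisons. In single-positive against parental cells 10 of the 13 were that much higher (median 0.40), as 443 of the features were. MT-ATP8 had 254, 303 and 575 CPM, and MT-CO2 had 3742, 4213 and 7536 CPM. The share of cells with under 0.5% of UMIs from mitochondrial mRNAs also differed, at 31.8%, 21.8% and 6.19%. Without those cells the family's summed log2 ratio was 0.03 in double-positive against single-positive cells.

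Other nuclear genes for mitochondria were closer to the ribosomal family than to the mitochondrial mRNAs. The 50 nuclear-encoded subunits of oxidative phosphorylation summed to 19944, 19771 and 19490 CPM. Their median log2 ratio of double-positive over single-positive cells was −0.03, and none of the 50 passed the 25% mark there. The ratios largest in size there were those of SDHA, the flavoprotein of complex II, at 100, 134 and 109 CPM, and NDUFA1 of complex I, at 393, 479 and 390 CPM. In both the single-positive library was the high one. The highest ratio belonged to UQCRFS1 of complex III, at 0.21. In single-positive against parental cells 2 of the 50 were at least 25% higher, as 443 of 9501 features were, with SDHA the highest at 0.43. In double-positive against parental cells 0 of the 50 passed the mark. The 83 cytosolic ribosomal proteins had medians of −0.03, 0.02 and −0.02 in double-positive against single-positive, single-positive against parental and double-positive against parental cells, with 3, 6 and 0 of them past the 25% mark, where 5.17%, 6.28% and 4.19% of all features were.

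The 6 proteins of the mitochondrial ribosome that carry other symbols were close to the family, with a median log2 ratio of 0.02 in double-positive against single-positive cells. AURKAIP1 was the most abundant, at 492, 447 and 477 CPM, and DAP3 had 84.4, 84.5 and 87.1 CPM. Of 19 factors that assemble the ribosome or modify its RNA, 8 were higher and 11 lower. RPUSD4, a pseudouridine synthase, had 9.77, 15.7 and 11.9 CPM and was past the 25% mark in that comparison, as 3.62% of features were in that direction. It also passed the mark upwards in single-positive against parental cells (0.68), as 443 of 9501 features did. Against the 42.8% of features that were higher in double-positive than in single-positive cells and the 64% that were higher in single-positive than in parental cells, the directions of 2 other lists were as follows. Of 14 translation factors 12 were lower in double-positive than in single-positive cells (median −0.06), and 13 were higher in single-positive than in parental cells (median 0.10). SLIRP, which binds and stabilises mitochondrial mRNAs, had 303, 379 and 321 CPM, a double-positive to single-positive log2 ratio of −0.24 (−0.27 to −0.21). C12orf65, at 9.83, 10.7 and 8.01 CPM, had −0.42 (−0.60 to −0.24). It was the only translation factor past the 25% mark there, as 3.62% of features were in that direction. All 15 mitochondrial tRNA synthetases above the floor were higher in single-positive than in parental cells (median 0.15). Of these, 2 passed the 25% mark, as the same 443 of 9501 features did upwards. In double-positive against single-positive cells 13 of the 15 were lower (median −0.07). The levels of the 15 genes for mitochondrial DNA transcription, replication and RNA processing were close to level, with medians of 0.02 and 0.03, and the regulators of nuclear mitochondrial genes, 7 above the floor, had medians of −0.05 and 0.0066 in the same pair of comparisons.

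Within each library, cells with more mitochondrial mRNA had slightly less of the family. Cells were ranked by the share of their UMIs that came from the 13 mitochondrial mRNAs and cut into 5 equal groups, and the family's CPM was taken over nuclear UMIs alone so that the mitochondrial mRNAs did not enter the total. From the lowest to the highest share the family stood at 8967, 8669, 8482, 8426 and 8239 CPM in parental cells. In single-positive cells it stood at 8591, 8487, 8419, 8177 and 7412 CPM, and in double-positive cells at 8696, 8646, 8459, 8385 and 8085 CPM. The level fell at every step in all 3 libraries, and from end to end it fell by 8.12% in parental cells, fell by 13.7% in single-positive cells and fell by 7.02% in double-positive cells. The median mitochondrial share rose meanwhile from 0.126% to 2.60%, from 0.202% to 3.45% and from 0.683% to 3.88%.

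Depth moved with the ranking. From the lowest to the highest group the median UMIs per cell fell from 34931 to 17190, from 50126 to 11824.5 and from 35644 to 24754. Cells were therefore also ranked within 10 bands of equal depth. The family then stood at 8842 CPM in the lowest and 8464 CPM in the highest group of parental cells, at 8476 and 8132 CPM in single-positive cells and at 8583 and 8293 CPM in double-positive cells. From end to end it fell by 4.28%, fell by 4.05% and fell by 3.38%, less in each library than without the bands. The level no longer fell at each step in any library. Parental cells went from 8598 CPM in the second group to 8601 CPM in the next. Single-positive cells went from 8269 CPM in the third group to 8458 CPM in the next, and double-positive cells from 8583 CPM in the first to 8605 CPM in the next.

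**Figure D3:**
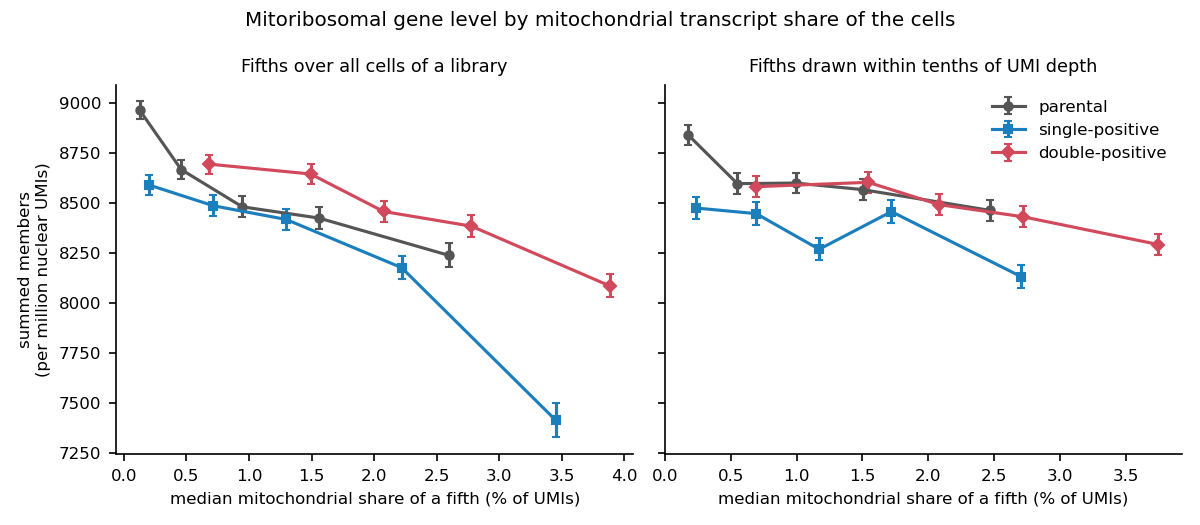
Level of the summed family in CPM of nuclear UMIs against the median mitochondrial mRNA share of 5 groups of cells, for each library, with all cells ranked together (left) and with cells ranked within 10 bands of depth (right). Error bars are counting intervals at 95% and the vertical axis does not start at 0; the last group lies below the first in each library, by less within bands of depth, where parental cells went from 8842 to 8464 CPM.

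Other gene groups moved in both directions across the same ranking. From the lowest to the highest group the cytosolic ribosomal proteins had log2 ratios of −0.16, −0.23 and −0.10. The nuclear respiratory chain subunits had −0.10 and −0.19 in the first 2 libraries but 0.0098 in double-positive cells, where their level thus did not follow that of the family (−0.10). The mitochondrial tRNA synthetases went the other way, with 0.24, 0.26 and 0.21, and within bands of depth with 0.16, 0.23 and 0.20. The assembly factors had 0.12, 0.07 and 0.06. Ratios of gene groups here are of summed levels unless called a median. The median over all features was 0.19, 0.21 and 0.12, and within bands of depth 0.15, 0.12 and 0.11. With all cells ranked together the median over synthetases was 0.30, 0.31 and 0.22, and over assembly factors 0.16, 0.16 and 0.13. Over cytosolic ribosomal proteins the median was −0.12, −0.23 and −0.08. The synthetases thus lay on the side of most features and the cytosolic ribosomal proteins below 0. Genes of S phase and mitosis had 0.14, −0.17 and 0.09 with all cells ranked together and 0.45, 0.16 and 0.30 within bands of depth, where all 20 S phase genes were higher in each library. Their part in the family's relation to the share was not tested.

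Gene by gene, 51, 59 and 56 of the 76 members were lower in the highest than in the lowest group, where 27.2%, 31.7% and 31.3% of all features were lower. The features were not matched to the family by level. Of 83 cytosolic ribosomal proteins 60, 75 and 63 were lower, and of 50 nuclear respiratory chain subunits 33, 43 and 22, so the fall was not particular to the family. The family's median log2 ratios were −0.06, −0.21 and −0.08, and those over all features 0.19, 0.21 and 0.12. Within bands of depth 46, 50 and 45 members were lower, against 27.9%, 31.6% and 33% of all features. There 59, 64 and 53 of the cytosolic ribosomal proteins were lower, and 30, 28 and 17 of the respiratory chain subunits. With all cells ranked together, 39 members were lower in all 3 libraries, as 15% of features were, and 6 were higher, as 53% were. Within bands of depth 30 were lower, as 14.9% of features were, and 12 higher, as 51.2% were.

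MRPS6, a conserved protein of the small subunit, had the lowest median ratio over the libraries. It went from 178 to 130, from 151 to 108 and from 159 to 136 CPM, log2 ratios of −0.45, −0.48 and −0.22. Within bands of depth these were −0.34, −0.28 and −0.17, so the gene was lower in each library under both rankings. MRPL57 went from 208 to 166, from 191 to 153 and from 175 to 162 CPM. MRPL52 went from 320 to 252, from 313 to 254 and from 288 to 242 CPM, and MRPS15 from 207 to 168, from 185 to 144 and from 198 to 175 CPM. All 4 have mean levels above 100 CPM.

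At the other end stood members of low level. MRPL49 went from 21.99 to 24.6, from 25.9 to 28.9 and from 24.6 to 26.7 CPM, and MRPL44, the family's relative of ribonuclease III, from 35.1 to 38.5, from 34.8 to 35.5 and from 32.7 to 36.1 CPM. The counting interval of each of these 6 ratios includes 0. MRPL30 had log2 ratios of 0.03, 0.26 and 0.16, and MRPS22 had 0.14, −0.21 and 0.17, with the single-positive library opposite to the others. With all cells ranked together, MRPS27 was the only member at least 25% higher in the highest group, in each library, as 33.7%, 40.7% and 24.1% of features were. It went from 13.9 to 18.3, from 16.6 to 22.1 and from 14.3 to 19.3 CPM, log2 ratios of 0.40 (0.11 to 0.70), 0.41 (0.04 to 0.77) and 0.43 (0.14 to 0.72). Within bands of depth its ratios were 0.25 (−0.04 to 0.53), 0.34 (0.04 to 0.65) and 0.37 (0.08 to 0.67), so it passed the mark in single-positive and double-positive cells only, and MRPL23 did in parental cells, at 0.33. There 26.5%, 22.9% and 19.9% of features passed it. It is below the 20 CPM used for naming genes and was picked out after its values had been seen. Past the 25% mark on the lower side were 3, 13 and 0 members, against 3.34%, 7.14% and 3.39% of features. Within bands of depth these counts were 1, 0 and 0, against 2.38%, 3.2% and 3.57%, so none of the 13 in single-positive cells passed there.

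**Figure D4:**
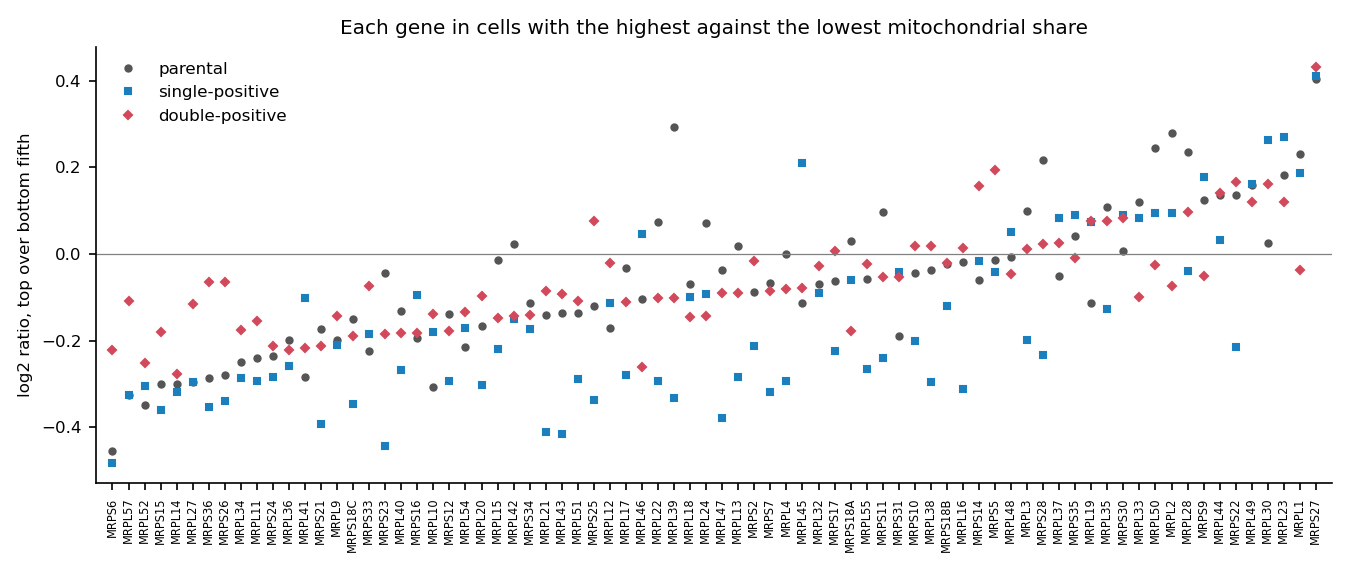
Log2 ratio of the highest over the lowest of 5 groups of cells by mitochondrial mRNA share, for each of the 76 members in parental (circles), single-positive (squares) and double-positive cells (diamonds), ordered by the median over libraries. Values below 0 are lower where the share is high; MRPS6 lies lowest in parental and single-positive cells, at −0.45 and −0.48, and MRPS27 lies highest, at 0.40, 0.41 and 0.43.

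The same relation was read cell by cell. Each cell's family share was the family's UMIs over its nuclear UMIs. Spearman's rho between that share and the mitochondrial mRNA share was −0.19 over 2409 cells, −0.35 over 1291 and −0.19 over 1940. All cells of a library share their library, and the 2 shares have the cell's depth in common, with which the family share had rho of 0.23, 0.38 and 0.24 and the mitochondrial share −0.47, −0.59 and −0.33. Ranked within bands of depth, rho was −0.09, −0.10 and −0.11. When every cell was thinned to 6500 UMIs, rho was −0.17, −0.29 and −0.14. These are weak relations in sparse counts, given as descriptions.

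The family did vary between cells by more than counting gives. In cells thinned to 6500 UMIs the mean was 54.5, 52.0 and 53.2 member UMIs, and the coefficient of variation was 20.0%, 20.4% and 20.0%, where counting alone would give 13.5%, 13.8% and 13.7%. The large and small subunit shares went together across cells, with rho of 0.53, 0.60 and 0.59, and of 0.29, 0.27 and 0.30 after thinning. The family share also went with that of nuclear respiratory chain subunits, with rho of 0.43, 0.51 and 0.43, and of 0.30, 0.38 and 0.32 after thinning. It went with the share of cytosolic ribosomal proteins (0.31, 0.46 and 0.33), of genes of S phase and mitosis (0.33, 0.30 and 0.35) and of translation factors (0.33, 0.33 and 0.41), and least with that of the mitochondrial tRNA synthetases (0.13, 0.11 and 0.14). Genes of S phase and mitosis also differed between the libraries. S phase genes (20) had medians of −0.18 in double-positive against single-positive and 0.34 in single-positive against parental cells. In the cells with less cell cycle RNA the family's double-positive to single-positive log2 ratio was 0.00053, with no member past the 25% mark.

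**Figure D5:**
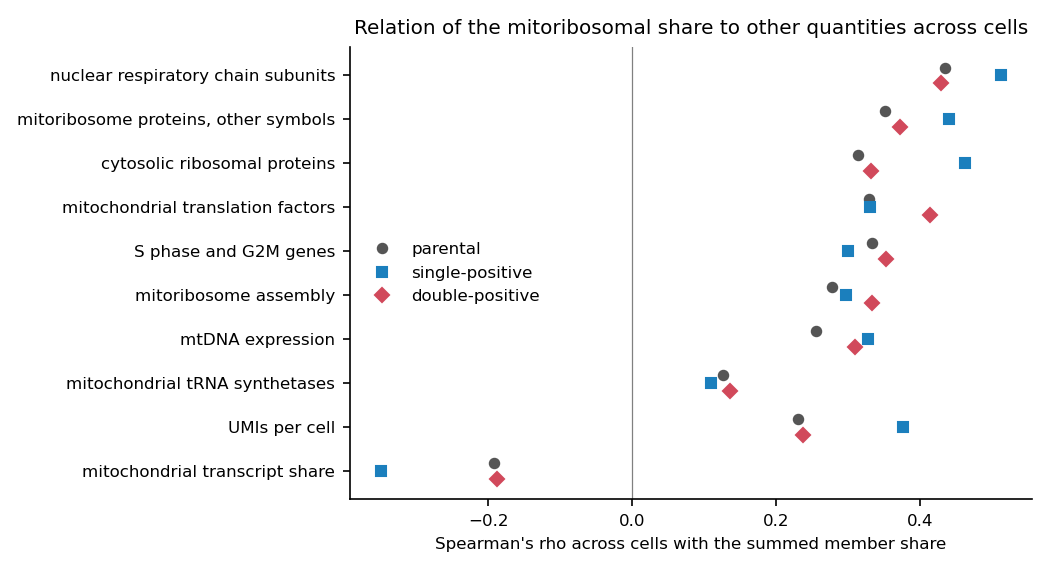
Spearman's rho across cells between the family's share of nuclear UMIs and 10 other quantities, for parental (circles), single-positive (squares) and double-positive cells (diamonds). The respiratory chain subunits lie farthest to the right, at 0.43, 0.51 and 0.43, and the mitochondrial mRNA share is the one quantity below 0, at −0.19, −0.35 and −0.19.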

How the data were processed

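The deposited files are unfiltered matrices of raw UMI counts per gene and barcode, 1 per library, with 33694 features and 737280 barcodes. Cell Ranger 4.0.0 and Seurat 4.0.6 with build GRCh38 are named by the submitters' processing notes, with no role given in the sources used here. No column of per-sample values was left unused.

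Counts were summed over barcodes with at least 6500 UMIs, which held 98.0%, 97.7% and 97.8% of the library totals of 65107147 (parental), 51637677 (single-positive) and 62517276 UMIs (double-positive), and scaled to CPM. No doublet caller was run and no cell was removed as a doublet in any library. With 1 library per group no test was possible. Log2 ratios carry exact conditional binomial (Clopper-Pearson) intervals and sums exact Poisson intervals, both at 95%. A difference of 25%, or 0.322 on the log2 scale, was a size rule. Python 3.11.15, scipy 1.17.1, numpy 2.4.6 and pandas 2.3.3 were used, and the ratio and interval code was tested on simulated data. Positions are from GENCODE 29 by gene identifier, and promoters from RefSeq.

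The members, lists and rules were chosen with earlier results of these data known. Genes were named as the 6 highest and 6 lowest by level, the 4 highest and 4 lowest ratios per comparison and per ranking by mitochondrial share among members with at least 20 CPM, all members past the fold, the MRPS18 paralogs, members sharing exons, and up to 2 genes per related list.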

Additional observations from a re-analysis of the deposited data

How the results depend on the processing

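No paired analysis was possible because each group had 1 library. The summed log2 ratio of double-positive over single-positive cells was 0.030 without cells under 0.5% mitochondrial UMIs, 0.022 in cells of a shared UMI range (22974 to 32998), 0.036 under median-of-ratios scaling, 0.021 with nuclear UMIs as total, 0.031 as a mean of per-cell CPM and 0.00053 in the cells with less cell cycle RNA. Members past the 25% mark numbered 2 in the shared UMI range (MRPL23 and MRPS10; 20.6% of all features passed there), 0 after subtracting 10% as ambient RNA, 0 in those with less cell cycle RNA and 2 with no floor. In single-positive against parental cells the summed ratio was −0.034 without the low mitochondrial cells, −0.077 in the shared range, −0.10 under median-of-ratios and −0.068 as a per-cell mean, and 1 member passed in the shared range (MRPL45; 21% of all features), by per-cell mean and after ambient subtraction (MRPL33 in both). In double-positive against parental cells the ratio was −0.0047, −0.054, −0.068, −0.023 and −0.033 without the low mitochondrial cells, in the shared range, under median-of-ratios, with nuclear UMIs and after ambient subtraction, and 1 member passed in the shared range (MRPL33; 8.43% of all features) and 1 (MRPS10) without the low mitochondrial cells, with nuclear UMIs and by per-cell mean. The correlation of family and mitochondrial share was −0.12, −0.17 and −0.074 (parental, single-positive, double-positive) in the middle range of cells by UMIs, −0.25, −0.41 and −0.26 with all UMIs as denominator, and −0.090, −0.10 and −0.11 within 10 bands of depth, which was chosen after seeing the data. It was −0.10 in parental cells without the low mitochondrial cells, and −0.29 and −0.14 in thinned single-positive and double-positive cells. The causes were not tested. The summed ratios and correlations kept their sign in all 45 values under the alternatives; among 768 values of named genes, 47 had the opposite sign, all of genes whose main log2 ratio was at most 0.09 in size, such as MRPS10 in single-positive against parental cells (−0.02, up to 0.0039). Of the 768 values, 665 stayed within the counting interval and 103 did not. A shared UMI range left 628 parental, 142 single-positive and 701 double-positive cells, which widens counting error there.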
